A study of Mus musculus with 4 samples.

Results

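The genes for the cytotoxic granule proteases Gzma, Gzmb, Gzmc, Gzmd, Gzme, Gzmf, Gzmg and Gzmk and for the pore protein Prf1 (perforin) were chosen by name, and all 9 were found among the 32285 genes counted. They were followed across 33368 cells sorted for CD45, a marker of immune cells, that the authors had given 17 cell type names (351 of the cells were named Myofibrobl), with natural killer cells named NK_cells and CD8 T cells named T_CD8. The cells came from melanomas of YUMM1.7, a mouse line with mutant Braf that was made to express ovalbumin, grown in Rag2-/- mice. Such mice make no T or B cells of their own but keep natural killer cells. All mice received adoptive transfer (ACT) of OT-1 CD8 T cells, which carry a receptor for an ovalbumin peptide and had been activated in culture with antibodies to CD3 and CD28 and with IL-2. Tumours were taken on day 10, which was 72 h after the transfer on day 7.

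There were 4 groups of 1 sample each. NTT tumours came from a clonal line naive to targeted therapy, and RTT tumours from a clonal derivative that had acquired resistance to the BRAF inhibitor dabrafenib and was kept in it. RTT_ROSA26 tumours came from RTT cells with Cas9 and a guide to the neutral ROSA26 locus, and RTT_PTGS12KO tumours from RTT cells that had lost Ptgs1 and Ptgs2, the genes for the cyclooxygenases that make prostaglandins. The targeted genes lay in the cancer cells, and none of the 17 cell types was named as cancer cells, so the knockout was not checked here. The labels give 1 tumour per condition, whereas legends of the study describe pooled tumours, and which holds here was not settled.

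Granzymes are serine proteases stored in the granules of natural killer cells and cytotoxic T cells. On contact with a target cell the granules are released, perforin forms pores in the target membrane, and granzymes enter and cleave proteins that lead to cell death. Granzyme B cleaves after aspartate and is the member best known for starting apoptosis, granzyme A is a tryptase, and granzymes C to G form a group found in rodents that activated lymphocytes can make. Resting mouse natural killer cells are known to hold Gzma, Gzmb and Prf1 transcripts before they are activated.

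The genes lie at 3 places in the genome (GENCODE models on GRCm38). Gzmb, Gzmc, Gzmf, Gzmg, Gzmd and Gzme lie in that order from the distal to the proximal end of a cluster at chr14:56117626-56262260, all on the minus strand, and the cluster spans 144.6 kb with 7 granzyme genes including Gzmn. Gzma (chr13:113093825-113100981) and Gzmk (chr13:113171608-113225908) are neighbours on the minus strand of chromosome 13, and Prf1 lies at chr10:61297833-61304680 on the plus strand. The main transcript has 5 exons for each granzyme gene and 2 for Prf1. Gzmf overlaps an antisense gene, Gm4022, and Gzmk overlaps Esm1 on the other strand. Of the 411 stretches of 90 bases in the last 500 bases of the main transcript, 7 were shared between Gzmd and Gzme, and 0 of the other 7 members' stretches occurred in any of the 20 granzyme, perforin and related protease genes compared. A part of the reads of Gzmd and Gzme therefore could not be told apart.

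Because Gzmc, Gzmd, Gzme, Gzmf and Gzmg turned out to be counted together in single natural killer cells, their promoters are shown, from RefSeq windows on GRCm38.p6 that run from 250 bases before to 50 bases after a start. A window was found for each of the 9 genes. The 5 stretches below are 85 bases long, end 26 to 51 bases before the start and are read on the minus strand, 5′ to 3′. Capitals mark the 8 letters at the place where Gzmc, Gzmf and Gzmg hold TGACGTCA, the letters of the cyclic AMP response element.
Gzmc, chr14:56234683-56234767: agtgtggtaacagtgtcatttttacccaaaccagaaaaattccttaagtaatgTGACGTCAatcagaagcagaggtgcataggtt
Gzmd, chr14:56132623-56132707: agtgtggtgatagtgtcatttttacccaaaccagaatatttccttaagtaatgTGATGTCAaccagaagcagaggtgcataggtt
Gzme, chr14:56120656-56120740: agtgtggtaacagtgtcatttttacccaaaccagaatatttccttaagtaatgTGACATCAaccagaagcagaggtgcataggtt
Gzmf, chr14:56211458-56211542: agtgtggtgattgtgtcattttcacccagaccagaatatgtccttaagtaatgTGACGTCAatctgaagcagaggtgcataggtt
Gzmg, chr14:56159625-56159709: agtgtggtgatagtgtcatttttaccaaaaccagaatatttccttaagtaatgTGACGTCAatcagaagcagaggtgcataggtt
Gzmd and Gzme each differed from TGACGTCA at 1 letter. Over the 10 pairs of these stretches, 89.4% to 96.5% of the bases were identical. The run of 20 bases at their 3′ end occurred in 5 of 32851 promoter windows, those of these 5 genes. The letters TGACGTCA, read on both strands, occurred in 1.79% of all windows and, among the members, in those of Gzmc, Gzmf and Gzmg. The letters TGTGGT of RUNX sites occurred in 16.8% of all windows and in 8 members, all but Gzmk. TGANTCA, of AP-1 sites, stood in 7.81% of windows and TTCNNNGAA, of STAT sites, in 8.30%, and Gzmb was the member that held each. In the printed stretches TGTGGT and TGACGTCA do not overlap. The motifs were picked after the sequences had been read.

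Counts were UMIs, tags of single mRNA molecules read at the 3′ end, so levels were not scaled by transcript length. They are given as counts per 1000000 UMIs (CPM) of the cells named. With 1 sample per group no test was possible. Intervals are 95% intervals that cover counting error only and say nothing about the spread between tumours. The samples held 69332486 to 146829369 UMIs, and all 4 were loaded together 3 times on the same chip, so that free RNA in a droplet could come from any of them. Of all cells, 196 shared a 16 base barcode with a cell of another load, and 0 did so with another sample of the same load.

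The class NK_cells held 709 cells in NTT, 13 in RTT, 26 with the ROSA26 guide and 306 with the Ptgs knockout, which is 8.58%, 0.163%, 0.380% and 2.97% of the cells of these samples. The class T_CD8 held 93, 1, 2 and 45 cells in the same order. NK_cells held all 8 natural killer markers examined in every sample, at a sum of 2138 to 3280 CPM, while the 9 T cell markers summed to 79.4 to 259 CPM. Cd8a was at 0 in NTT, RTT and RTT_ROSA26 and at 0.189 CPM in RTT_PTGS12KO. A UMI of Cd3d, Cd3e or Cd3g was seen in 12.8% of NK_cells in NTT and 16.3% in RTT_PTGS12KO, against 100% of T_CD8. In the small groups it was seen in 3 of 13 NK_cells in RTT (23.1%) and 3 of 26 in RTT_ROSA26 (11.5%). The T_CD8 name thus matched its defining markers, and NK_cells held natural killer markers, but natural killer cells were not separated from type 1 innate lymphoid cells (ILC1), which share many of them. The 5 ILC1 markers examined summed to 147, 52.9, 152 and 85.3 CPM in the NK_cells of NTT, RTT, RTT_ROSA26 and RTT_PTGS12KO. Of the 5, Itga1, the CD49a integrin chain, was seen in 43.7% of NK_cells in NTT and 34.3% in RTT_PTGS12KO, and Cxcr6 in 4.65% and 2.29%. The other markers were seen in a larger share of the more deeply read cells of RTT_PTGS12KO, with Tnfsf10 in 13.7% and 15.03%, Il7r in 7.62% and 10.8% and Cd200r1 in 3.81% and 8.17%. The 9 monocyte and macrophage markers summed to 2601 CPM in the NK_cells of NTT and 2353 in those of RTT_PTGS12KO, but to 11486 in RTT and 5679 in RTT_ROSA26, and their part in the levels of those small groups was not tested. Single markers moved between NTT and RTT_PTGS12KO, with Ly6c2, of monocytes, at 514 and 139 CPM, and the 3 neutrophil markers summed to 120.4 and 289.9 CPM, of which S100a9 had 69.9 and 182. Their part in the differences between these samples was not tested.

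Nearly all granzyme and perforin UMIs lay in natural killer cells. The lymphocyte classes NK_cells and T_CD8 together held 99.0% of the members' UMIs in NTT (interval 99.0% to 99.1%) and 97.8% in RTT_PTGS12KO (97.7% to 97.9%). The share was 58.1% in RTT (56.5% to 59.8%) and 85.3% in RTT_ROSA26 (84.6% to 86.0%), the samples with fewest such cells. Per 1000 cells over all samples, NK_cells held 89005 UMIs of Gzma, 79363 of Gzmc, 31582 of Gzmb, 30262 of Gzmd, 21468 of Gzmf, 14569 of Gzme, 14319 of Gzmg, 13873 of Prf1 and 312 of Gzmk. T_CD8 held 39943 of Gzmb and 8121 of Gzma, then 2227 of Prf1, 291 of Gzmc and fewer than that of every other member. These sums weigh each sample by its cells, and NTT gave 709 of the 1054 NK_cells. In NTT Gzma stood above Gzmc, at 92233 against 54333 per 1000 NK_cells, whereas Gzmc stood above Gzma in RTT_PTGS12KO (132693 against 88088), RTT_ROSA26 (140500 against 38885) and RTT (66923 against 34769). For Gzmb the order of the classes also depended on the sample, with 29309 per 1000 NK_cells and 27871 per 1000 T_CD8 in NTT, and 38013 and 64422 in RTT_PTGS12KO. In the other 32173 cells Gzma had 72.0 UMIs per 1000 cells. Without 27 of those cells, which held 10 or more member UMIs each, Gzma had 47.3 and Gzmc 41.1 per 1000 cells.

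**Figure D1:**
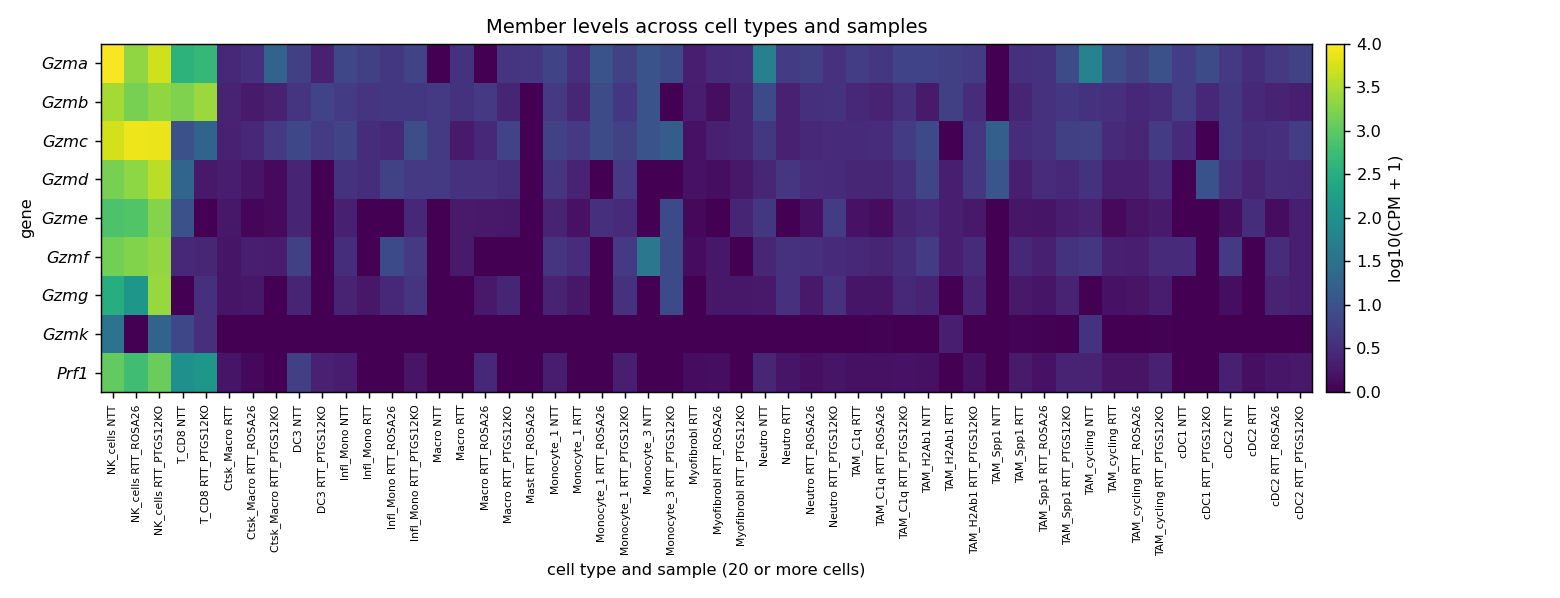
Heat map of log10(CPM + 1) for the 9 genes (rows) in each cell type and sample with 20 or more cells (columns). NK_cells columns are bright for every gene but Gzmk, T_CD8 columns are bright for Gzmb, Gzma and Prf1, and the myeloid columns stay near the bottom of the scale.

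Outside lymphocytes the members were counted at a low rate in every sample. With 27 cells of 10 or more member UMIs set aside, 190, 160, 174 and 273 member UMIs were counted per 1000 cells of NTT, RTT, RTT_ROSA26 and RTT_PTGS12KO. With those 27 cells kept, the levels were 26.5, 12.6, 12.4 and 23.2 CPM, and in Monocyte_1 alone 24.5, 12.7, 26.7 and 26.9 CPM. Of these UMIs, without the 27 cells, Gzma gave 21.5% to 25.5% in the 4 samples, Gzmb 12.2% to 16.03% and Gzmc 17.6% to 22.0%. Gzmg gave 5.50% to 8.93%. In NK_cells the make-up varied more between samples, with Gzma at 12.9% to 40.6% and Gzmc at 23.9% to 46.7% of member UMIs. Monocyte_1 cells, which are not known to make these genes, had a UMI of Gzma in 3.92% of 4977 cells in NTT and 5.05% of 3347 in RTT_PTGS12KO, and of Gzmc in 3.82% and 5.05%, at median depths of 7273 and 9667 UMIs per cell. Whether those UMIs came from free RNA was not tested.

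**Figure D2:**
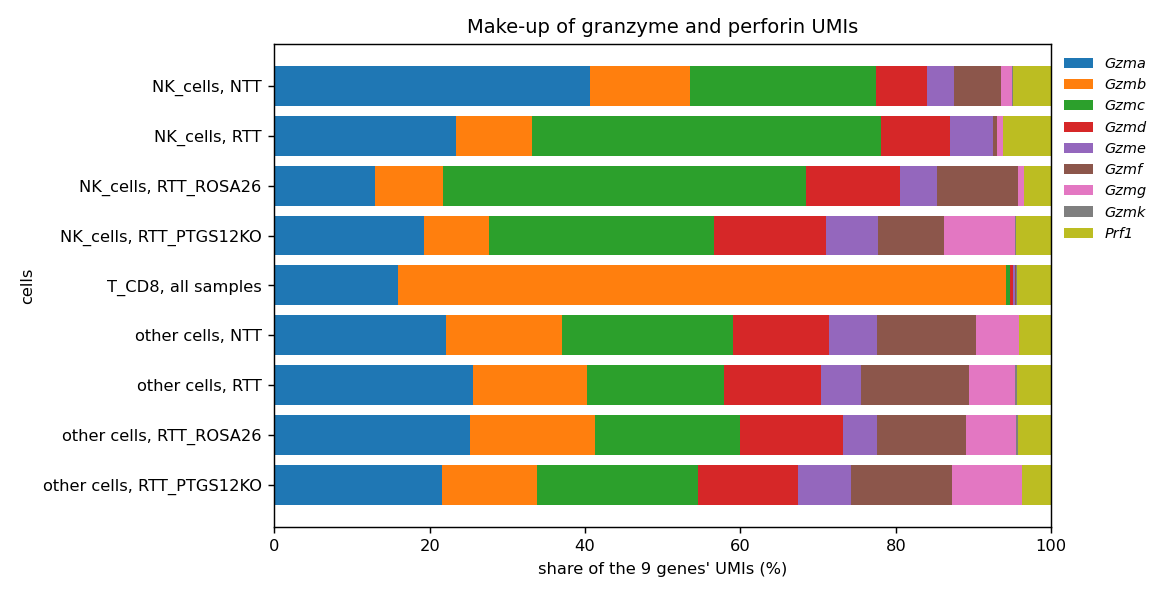
Share (%) that each of the 9 genes takes of all granzyme and perforin UMIs, for NK_cells by sample, T_CD8 of all samples, and all other cells by sample without cells of 10 or more such UMIs. In the 4 bars of other cells Gzma takes 21.5% to 25.5% and Gzmg 5.50% to 8.93%, whereas the NK_cells bars differ between samples and Gzmb takes 78.2% of the T_CD8 bar.

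The comparison of natural killer cells between RTT_PTGS12KO and NTT rested on the most cells. It asked how cytotoxic transcripts in the resistant tumour without cyclooxygenases stood beside those in the therapy-naive tumour. Gzma was lower and the cluster genes Gzmc to Gzmg were higher in RTT_PTGS12KO, with Gzmb and Prf1 between. Of the 9 members 8 reached 50 CPM in the higher sample, and all 8 did so in each of these samples. Gzmg, Gzmd and Gzme were at least 2-fold higher in RTT_PTGS12KO, against 1.35% of the 2523 genes measured, and 0 members were at least 2-fold lower, against 0.872%.

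Gzma, the tryptase, had 9145, 1993, 2199 and 5108 CPM in the NK_cells of NTT, RTT, RTT_ROSA26 and RTT_PTGS12KO. NTT was highest and the small RTT and RTT_ROSA26 groups lowest. The log2 ratio of RTT_PTGS12KO to NTT, taken on CPM + 1 here and throughout, was -0.84 (-0.86 to -0.82), rank 43 from the bottom of the 2523 genes.

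Gzmb had 2906, 842, 1488 and 2204 CPM in the same order of samples. Again NTT was highest and RTT lowest, and the log2 ratio of RTT_PTGS12KO to NTT was -0.40 (-0.43 to -0.37). Prf1 had 1097, 529, 598 and 1210 CPM, with NTT and RTT_PTGS12KO close together. Its log2 ratio of 0.14 (0.09 to 0.19) turned to -0.040 when every cell was given equal weight, so it had no settled direction.

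Gzmc, the cluster member with the most UMIs, had 5387, 3836, 7945 and 7694 CPM in that order. In RTT_ROSA26 1 cell of 26 held 40.7% of these UMIs, and in RTT 1 cell of 13 held 32.9%. The log2 ratio of RTT_PTGS12KO to NTT was 0.51 (0.49 to 0.53).

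Gzmd had 1491, 754, 2060 and 3812 CPM across the samples, and Gzme had 765, 476, 829 and 1780. For each the RTT_PTGS12KO sample was highest. Their log2 ratios of RTT_PTGS12KO to NTT were 1.35 (1.32 to 1.39) and 1.22 (1.17 to 1.27), ranks 15 and 18 from the top of the 2523 genes.

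Gzmf had 1383, 39.7, 1764 and 2259 CPM. The log2 ratio of RTT_PTGS12KO to NTT was 0.71 (0.67 to 0.75), but was 0.13 without load 1 and 1.24 without load 3. The 3 loads of the RTT_PTGS12KO pool held 73, 114 and 119 different NK_cells and gave 936 to 4412 CPM. The 31 of 306 cells with the most Gzmf held 97.7% of its UMIs.

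Gzmg had 310 CPM in NTT and 2425 in RTT_PTGS12KO, and 66.1 and 128 CPM in the few cells of RTT and RTT_ROSA26. It was far highest in RTT_PTGS12KO, with a log2 ratio to NTT of 2.96 (2.90 to 3.03), rank 2 from the top of all genes measured. The 3 loads gave 215 to 408 CPM in NTT and 1440 to 4337 in RTT_PTGS12KO, and are technical runs of the same pool. One cell held 17.3% of the Gzmg UMIs in RTT_PTGS12KO and 21.3% in NTT, and without the cell with the most member UMIs in each sample the ratio was 2.73.

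Gzmk, a tryptase known from memory T cells, was rare, with 32.7 CPM in NTT, 18 in RTT_PTGS12KO and 0 UMIs in RTT and RTT_ROSA26. A count of 0, taken to allow up to 3 counts, still allowed 13.2 CPM in the 13 NK_cells of RTT and 6.52 CPM in the 26 of RTT_ROSA26, so lower levels were not detectable there.

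**Figure D3:**
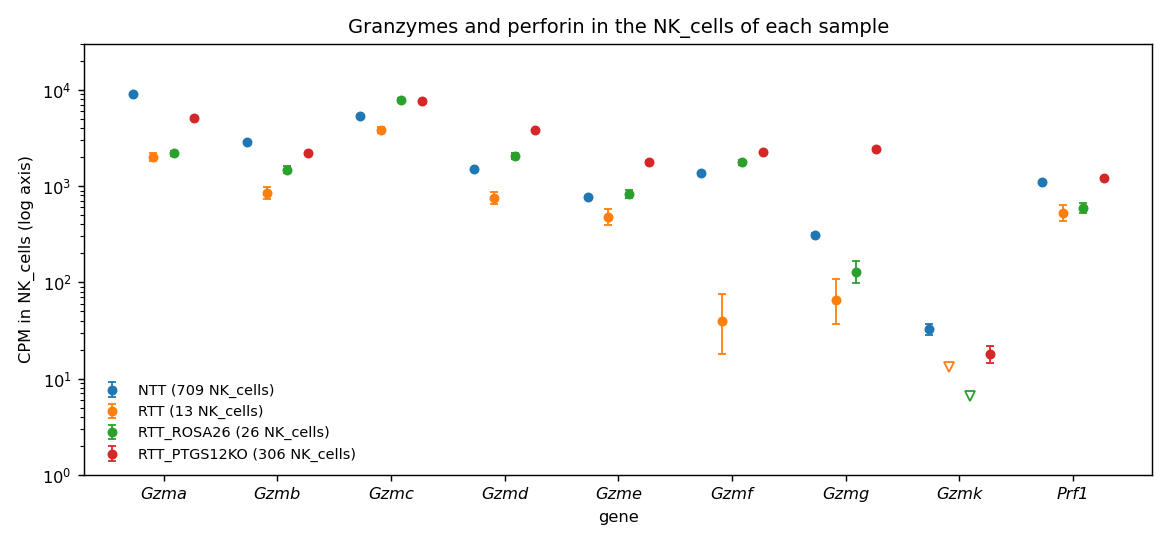
CPM (log axis) of each gene in the NK_cells of the 4 samples, as points with 95% Poisson intervals, and open triangles at 3 counts where no UMI was counted. Gzma is highest in NTT, at 9145 CPM, whereas Gzmd, Gzme and Gzmg are highest in RTT_PTGS12KO.

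Added over the 9 genes, NK_cells held 22517, 8536, 17010 and 26510 CPM in the same order of samples. The sum joins the opposite differences of Gzma and of Gzmc to Gzmg, and its log2 ratio of RTT_PTGS12KO to NTT was 0.24 (0.23 to 0.25). That ratio was 0.060 with every cell given equal weight, 0.13 without load 1 and 0.39 without load 3.

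The shares of natural killer cells with a UMI were also compared between NTT and RTT_PTGS12KO. Cells in RTT_PTGS12KO were read more deeply, at a median of 15524 UMIs against 7669 in NTT, so each cell was thinned to 2000 UMIs. After thinning a UMI of Gzma was seen in 86.1% of 707 cells in NTT (83.4% to 88.6%) and in 74.8% of 306 in RTT_PTGS12KO (69.6% to 79.6%), from 89.3% and 83.0% before. Gzmc was seen in 42.7% (39.0% to 46.5%) and 58.2% (52.4% to 63.8%), from 51.3% and 67.6% before. Gzmd to Gzmg were likewise seen in a larger share of cells in RTT_PTGS12KO, and Gzmb and Gzmk in a smaller one. For Prf1 the share went against the CPM, at 75.2% in NTT (71.9% to 78.4%) and 66.3% in RTT_PTGS12KO (60.7% to 71.6%), so no order was read for it.

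Gzmd was seen in 17.5% of thinned cells in NTT and 35.0% in RTT_PTGS12KO, Gzme in 14.7% and 33.3%, Gzmf in 7.78% and 15.4%, and Gzmg in 5.23% and 16.01%. For Prf1 the shares were 75.2% and 66.3%, and for Gzmb 83.2% and 71.9%. Before thinning Gzmb was seen in 93.5% and 94.1% of cells and Prf1 in 91.3% and 91.8%, so these genes were found in most natural killer cells of either sample.

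**Figure D4:**
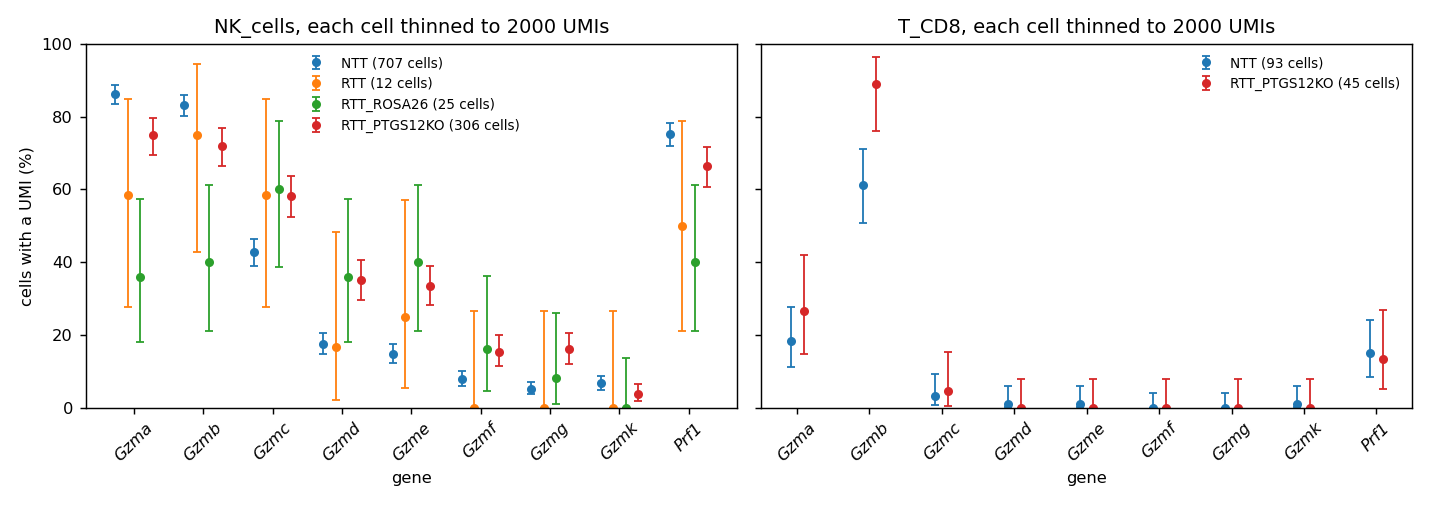
Percent of cells with a UMI of each gene after thinning to 2000 UMIs per cell, for NK_cells of the 4 samples (left) and T_CD8 of NTT and RTT_PTGS12KO (right), with exact 95% binomial intervals. In NK_cells the NTT points are above RTT_PTGS12KO for Gzma and below it for Gzmc to Gzmg, and in T_CD8 Gzmb is the member seen most.

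In NTT and RTT_PTGS12KO nearly all cells with Gzmd, Gzme, Gzmf or Gzmg had Gzmc too, while some cells with Gzme or Gzmf had no Gzmd. In NTT all 124 thinned NK_cells with a UMI of Gzmd also had Gzmc (100%, interval 97.1% to 100%), against 30.5% of the 583 without Gzmd. Of the cells with Gzmg, 97.3% had Gzmc and 97.3% had Gzmd. In RTT_PTGS12KO 96.3% of the 107 cells with Gzmd had Gzmc, against 37.7% of the 199 without, and 98.0% of the 49 cells with Gzmg had Gzmc and 93.9% had Gzmd. Cells with Gzmd were thus almost all a subset of the cells with Gzmc, and cells with Gzmg mostly a subset of those with Gzmd. Cells with Gzmf nested in those with Gzmc, at 98.2% of 55 in NTT and 100% of 47 in RTT_PTGS12KO, but less so in those with Gzmd, at 78.2% and 80.9%. Of the cells with Gzme, 104 in NTT and 102 in RTT_PTGS12KO, 98.1% and 97.1% had Gzmc and 86.5% and 90.2% had Gzmd. Gzmd and Gzme correlated at r = 0.94 over 709 cells of NTT and 0.96 over 306 of RTT_PTGS12KO on log-scaled counts. These genes shared 7 of 411 stretches at their 3′ ends, so some reads may fit both, and the cells share a sample.

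The counts of Gzmd, Gzmf and Gzmg were concentrated in few cells, and those of Gzmc less so. The 71 of 709 NK_cells of NTT with the most UMIs of a gene held 57.5% of Gzmc, 92.1% of Gzmd, 99.8% of Gzmf and 100% of Gzmg UMIs. For Gzma such cells held 30.2%, for Prf1 37.4% and for Gzmb 48.7%. In RTT_PTGS12KO the top 31 of 306 cells held 46.3% of Gzmc, 72.8% of Gzmd, 97.7% of Gzmf, 96.6% of Gzmg, 35.2% of Gzma, 43.6% of Prf1 and 48.2% of Gzmb, so that Gzmc lay between the last 2. The median cell had 1 UMI of Gzmc in NTT and 25 in RTT_PTGS12KO, and 75 and 61.5 of Gzma.

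Gzma and Gzmc levels ran in opposite directions over single cells, although many cells held both. Over single NK_cells they correlated at r = -0.56 in NTT and -0.46 in RTT_PTGS12KO, and after thinning at Spearman's rho of -0.52 and -0.40. These are descriptions over cells of 1 sample each. In NTT 55.3% of thinned cells had Gzma without Gzmc, 30.8% both, 11.9% Gzmc without Gzma and 1.98% neither. In RTT_PTGS12KO the same classes held 37.9%, 36.9%, 21.2% and 3.92%. Of cells without Gzma, 85.7% had Gzmc in NTT and 84.4% in RTT_PTGS12KO, against 35.8% and 49.3% of cells with Gzma.

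**Figure D5:**
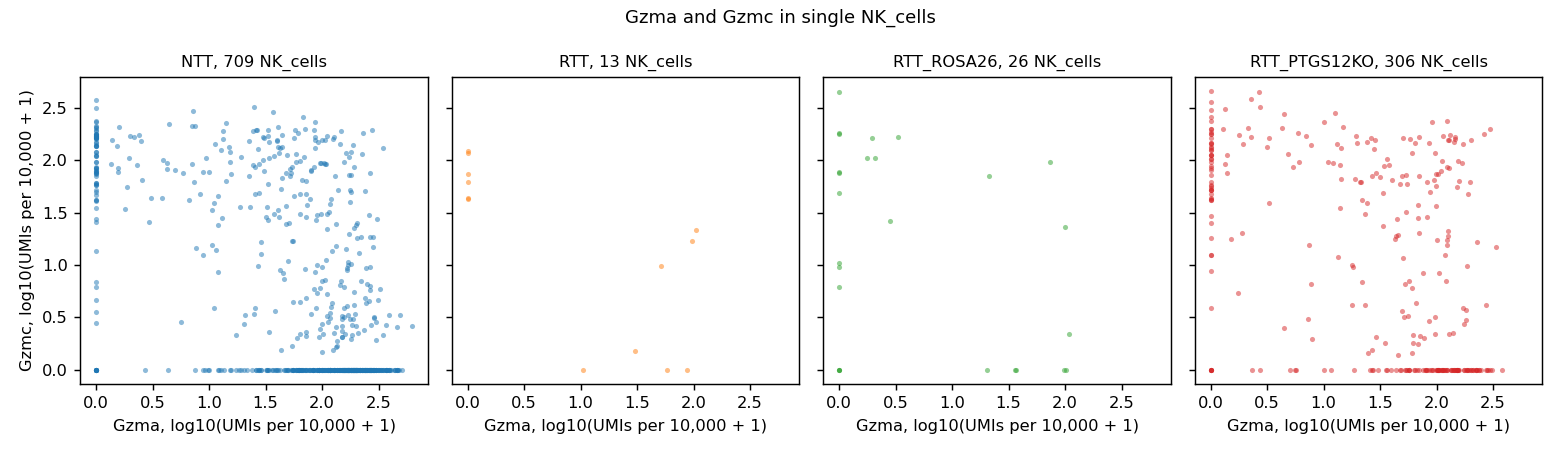
Gzma (horizontal) against Gzmc (vertical) in every single NK_cell of the 4 samples, each as log10 of UMIs per 10000 plus 1. Many cells lie on an axis, with high Gzma and no Gzmc or high Gzmc and no Gzma, and NTT has more of the former, 55.3% of its thinned cells.

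Cells with Gzmc after thinning were also set beside cells without it, in their full counts. In cells with and without Gzmc, Gzma was at 5791 and 14093 CPM in NTT, at 4166 and 7664 in RTT_PTGS12KO, at 1018 and 3493 in RTT, and at 1185 and 4024 in RTT_ROSA26. On the CPM scale it was lower in cells with Gzmc in each of the 4 samples. In UMIs per cell it was at 81.6 and 100.6 in NTT, 19.6 and 63.0 in RTT and 23.1 and 66.4 in RTT_ROSA26, but in RTT_PTGS12KO at 90.2 with Gzmc and 85.1 without, where the direction turned. Within cells with Gzmc the level of Gzmc itself was 9019 CPM in NTT and 10487 in RTT_PTGS12KO, while Gzmd was 2500 and 5190 and Gzmg 521 and 3319. Cells with Gzmc had more UMIs, a median of 12114 against 5716 in NTT and 19768 against 9033 in RTT_PTGS12KO.

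Prf1 and Gzmb were higher in the cells with Gzmc of RTT_PTGS12KO, at 1470 against 504 CPM and 2538 against 1297, and nearer each other in NTT, at 1123 against 1059 and 3165 against 2528. In RTT_ROSA26 they were at 823 against 176 and 2168 against 291 CPM, whereas in RTT they were lower in cells with Gzmc, at 438 against 621 and 706 against 1020. Ifng, the type II interferon, was lower in cells with Gzmc, at 72.4 against 244 CPM in NTT and 51.1 against 176 in RTT_PTGS12KO. Klra4, an activating Ly49 receptor of mature natural killer cells, was lower too, at 46.3 against 140 and 53.9 against 270. Klrb1c, Klre1 and Klra8 were also lower in both samples. The other natural killer markers were mixed. Ncr1 was at 272 against 251 and 247 against 264 CPM, and Klrd1 at 1116 against 1308 and 946 against 927. Eomes was at 109 against 128 and 164 against 150, and Il2rb at 537 against 553 and 503 against 421. In RTT and RTT_ROSA26 Ncr1, Klrd1 and Il2rb were higher in cells with Gzmc, Klrb1c and Klra4 lower, and the rest mixed. Higher in cells with Gzmc of NTT and RTT_PTGS12KO was Itga1, at 113 against 55.3 CPM and 56.0 against 28.8, while in RTT and RTT_ROSA26 it was at 7.43 against 22.2 and 27.3 against 36.4. The other ILC1 markers did not follow it in RTT_PTGS12KO, with Cd200r1 at 4.67 against 10.6 CPM, Il7r at 9.85 against 24.6, Cxcr6 at 2.59 against 3.52 and Tnfsf10 at 13.7 against 13.4. In NTT they were at 4.70 against 4.497, 23.3 against 20.4, 13.6 against 6.57 and 24.7 against 12.1 in that order, and the part of ILC1 in these differences was not tested. Il2ra, the high-affinity IL-2 receptor chain, was higher in cells with Gzmc of NTT and RTT_PTGS12KO, at 21.1 against 7.26 and 34.2 against 11.3 CPM, and in RTT_ROSA26 was at 6.83 against 12.1 on 2 UMIs each. Serpinb6a, a protease inhibitor, was at 100.1 against 52.2 in NTT, 150.4 against 53.5 in RTT_PTGS12KO and 215 against 72.7 in RTT_ROSA26, but at 156 against 255 in RTT. The myeloid gene Lyz2 was at 782 against 1433 CPM in NTT and 634 against 2211 in RTT_PTGS12KO, although in UMIs per cell NTT had 11.02 against 10.2. C1qa, of macrophages, was at 142 against 131 CPM in NTT and 139 against 296 in RTT_PTGS12KO, and the part of myeloid RNA in these differences was not tested.

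The natural killer cells of RTT and RTT_ROSA26 were too few to set levels firmly, and these contrasts share samples with the one above. Of 8 members at 50 CPM or more in the higher sample, 5 were at least 2-fold higher in NTT than in RTT, against 5.09% of 2926 genes, and 0 were 2-fold lower, against 13.1%. They were Gzma, Gzmb, Gzmf, Gzmg and Prf1, of which Gzmf was under 50 CPM in RTT. The log2 ratios of NTT to RTT were 2.20 (2.06 to 2.33) for Gzma, 1.79 (1.58 to 2.00) for Gzmb and 1.05 (0.79 to 1.32) for Prf1. The ratio for Gzmc was 0.49 (0.39 to 0.59), and turned to -0.08 with every cell given equal weight. The median of all genes in this contrast was -0.11, and TMM scaling added 0.33 to every ratio, after which 7 members were 2-fold higher. Without the cell with the most member UMIs in each sample 6 were, and with every cell given equal weight 4 were. In these last settings Prf1 was under 2-fold, at log2 ratios of 0.89 and 0.71.

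Between RTT_PTGS12KO and RTT_ROSA26 4 of 8 members were at least 2-fold higher in RTT_PTGS12KO, against 3.32% of 2860 genes, and 0 were 2-fold lower, against 8.18%. They were Gzma with a log2 ratio of 1.22, Gzme with 1.10, Gzmg with 4.23 and Prf1 with 1.01. Gzmc had a ratio of -0.05 (-0.10 to 0.00), which TMM scaling turned to 0.16. With every cell given equal weight the ratio of Gzmg was 1.86 and that of Gzme 0.23, and Gzmf turned from 0.36 to -0.29. Without the cell with the most member UMIs in each sample 6 members were 2-fold higher, with TMM scaling 5 and with equal weight 4. With equal weight Gzmb, which moved from 0.57 to 1.69, stood in place of Gzme. Between RTT_ROSA26 and RTT, the 2 resistant samples with intact Ptgs genes, 3 of 8 members were at least 2-fold higher in RTT_ROSA26, against 5.10% of 3056 genes, and 0 were lower, against 6.94%. They were Gzmc, Gzmd and Gzmf, with Gzmf at 9 UMIs in RTT. With TMM scaling, with equal weight and without the top cell 4 members were 2-fold higher. Gzmc was not among them with equal weight (log2 ratio 0.83) or without the top cell (0.65), whereas Gzme (1.54 and 2.38) and Gzmg (3.79 and 3.45) were. The ratios of Gzma and Prf1, 0.14 and 0.18, turned negative with every cell given equal weight, and so did that of Gzmb. RTT_ROSA26 was made as the control for the knockout, and its gap to RTT rests on 26 and 13 cells.

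Single cells weighed much in these small groups. In RTT_ROSA26 1 cell held 57.2% of Gzmf and 47.3% of Gzmd UMIs and another 64.9% of Gzmb, and in RTT 1 cell held 91.8% of Gzmd. After thinning Gzma was seen in 7 of 12 cells in RTT and 9 of 25 in RTT_ROSA26, with intervals of 27.7% to 84.8% and 17.97% to 57.5%. These intervals are over the cells of 1 sample each, so they do not order the groups.

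CD8 T cells used a narrower set of members. Gzmb had 1661 CPM in NTT and 2505 in RTT_PTGS12KO, Gzma 384 and 462, and Prf1 102 and 131. The single T_CD8 cell of RTT had 91 UMIs of Gzmb, 1 of Prf1 and 0 of Gzma, and the pair of cells in RTT_ROSA26 had 50, 3 and 11. The RTT cell also held Gzmc, which the RTT_ROSA26 pair did not. The log2 ratios of RTT_PTGS12KO to NTT were 0.59 (0.52 to 0.67) for Gzmb, 0.26 (0.09 to 0.43) for Gzma and 0.35 (0.03 to 0.69) for Prf1. Of the 3 members at 50 CPM or more 0 were at least 2-fold apart, against 2.38% of 2693 genes. After thinning Gzmb was seen in 61.3% of 93 T_CD8 in NTT (50.6% to 71.2%) and 88.9% of 45 in RTT_PTGS12KO (75.9% to 96.3%). In these cells the monocyte and macrophage markers summed to 2141 CPM in NTT and 1701 in RTT_PTGS12KO. The neutrophil markers summed to 754 and 1060 CPM. The part of such RNA in the differences was not tested.

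Gzmc to Gzmg, unlike Gzmb of the same cluster, were counted little in T_CD8. Gzmc had 14 UMIs (8.97 CPM) in NTT and 21 (18.1 CPM) in RTT_PTGS12KO, Gzmd 30 and 1, Gzme 14 and 0, Gzmf 3 and 2, and Gzmg 0 and 3. In NTT 20 of the 30 Gzmd UMIs came from 1 cell. In Monocyte_1, which is not known to make it, Gzmc had 5.17 and 5.26 CPM, so the T_CD8 level of RTT_PTGS12KO (interval 11.2 to 27.7 CPM) lay above it, whereas that of NTT (4.90 to 15.1) overlapped it. Before thinning 10.8% and 31.1% of T_CD8 had a Gzmc UMI, at medians of 12453 and 19994 UMIs per cell, and after thinning 3 of 93 and 2 of 45 cells, or 3.23% and 4.44%. In RTT_PTGS12KO Gzmc was 424-fold higher in NK_cells than in T_CD8 (277 to 685), and in NTT, where the interval of T_CD8 overlapped that of Monocyte_1, it had 5387 against 8.97 CPM. Gzmb, in contrast, was 1.75-fold higher (1.68 to 1.82) in NK_cells than in T_CD8 of NTT and 1.14-fold higher (1.09 to 1.18) in T_CD8 than in NK_cells of RTT_PTGS12KO.

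Over all cells of a sample NTT stood highest, then RTT_PTGS12KO, RTT_ROSA26 and RTT, the order of their shares of natural killer cells. In such sums alone more cells of a type and more RNA per cell cannot be told apart. Gzma had 959, 7.95, 13.2 and 194 CPM in NTT, RTT, RTT_ROSA26 and RTT_PTGS12KO, and Gzmc 560, 9.44, 35.2 and 281. Added over the 9 genes the sums were 2395, 30.0, 83.9 and 999.6 CPM. NTT was 79.9-fold above RTT (77.2 to 82.6), RTT_PTGS12KO 11.9-fold above RTT_ROSA26 (11.7 to 12.2), and RTT_ROSA26 2.80-fold above RTT (2.69 to 2.91). That last gap rested on the loads, with a log2 ratio of 1.45 that was 1.98 without load 1 and 0.79 without load 3. NK_cells were 8.58% of the cells in NTT and 0.163% in RTT. Within NK_cells the summed members were 2.64-fold higher in NTT than in RTT (2.52 to 2.76), on 13 cells in RTT. By gene, over all cells, the excess of NTT over RTT ran from 42.5-fold for Gzmg to 121-fold for Gzma among members with over 10 UMIs in RTT. The excess of RTT_PTGS12KO over RTT_ROSA26 ran from 7.99-fold for Gzmc to 72.5-fold for Gzmg. In RTT NK_cells and T_CD8 held 16.5% of Gzmg, 48.7% of Gzma, 4.89% of Gzmf and 79.5% of Gzmc UMIs. In RTT_ROSA26 they held 43.7% of Gzmg and 94.2% of Gzmc UMIs. The low counts outside lymphocytes thus enter these ratios to a different degree for each gene.

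A list of 36 other genes of the granule pathway was followed in the natural killer cells of RTT_PTGS12KO against NTT. Of these 21 reached 50 CPM, 0 were at least 2-fold apart, against 2.22% of all genes, 4 had a ratio above 0 and 17 below, and the median log2 ratio was -0.17, against 0.00 for all 2523 genes. The largest difference was that of Nkg7, a granule membrane protein needed for release, at 1972 CPM in NTT and 987 in RTT_PTGS12KO (log2 ratio -0.998, interval -1.04 to -0.95), just short of 2-fold.

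All 8 genes for granule content and processing were measured. Srgn, the proteoglycan that packs granzymes, had 1456 and 1171 CPM in NTT and RTT_PTGS12KO, and Ctsc, which activates granzymes by removing their propeptide, 373 and 332. Serpinb9, an inhibitor of granzyme B in the cell that makes it, had 510 and 451 CPM. Serpinb6a was the 1 of the 8 with a ratio above 0, with 80.8 and 124 CPM and a log2 ratio of 0.61 (0.46 to 0.78).

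Of the 8 genes for granule release 1 reached 50 CPM, the vesicle protein Vamp8, with 186 and 194 CPM. Rab27a, Unc13d, Stx11, Stxbp2, Lyst, Vamp7 and Ap3b1 lay between 18.6 and 47.0 CPM in both samples. Among other effector molecules Ifng had 142 and 84.7 CPM (log2 ratio -0.74, -0.91 to -0.58) and Fasl, a death ligand, 60.1 and 36.0 (-0.72, -0.99 to -0.49). Of the 6 transcription factors 4 reached 50 CPM, 1 with a ratio above 0 and 3 below, with a median of -0.08. Eomes, which sets natural killer cell identity, had 117 and 160 CPM, Runx3 437 and 399, Id2 676 and 664 and Zeb2 69.1 and 52.3, while Tbx21 and Prdm1 stood under 50 CPM in both.

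The same list in T_CD8 gave 21 genes at 50 CPM, of which 1, Ifng, was at least 2-fold apart, against 2.38% of 2693 genes, with 2177 CPM in NTT and 8697 in RTT_PTGS12KO (log2 ratio 2.00, 1.94 to 2.05). In NK_cells Ifng was thus far below its level in T_CD8, while Gzmc, Gzmd, Gzme, Gzmf and Gzmg were far above theirs. The 2 other granzyme genes listed, Gzmm and Gzmn, had 39 and 1 UMIs in the NK_cells of NTT and 52 and 18 in those of RTT_PTGS12KO.

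The genes whose levels ran most like a member's were found by Pearson's r of log2(CPM + 1) over the 42 groups of 1 cell type in 1 sample with 50 or more cells, of which 3 were lymphocytes. The groups of a sample share their loads and tumour source. For Gzma they were Klra7 (r = 0.95), Nkg7 (0.95) and Sytl2 (0.95), for Gzmb Fasl (0.98), Gpr174 (0.98) and Gm34794 (0.97), and for Prf1 Lcn4 (0.97), Trav22 (0.97) and Eya2 (0.97). Gzmc and Gzmf shared Dsc2 (0.96 and 0.94) and Klrb1 (0.96 and 0.94), next to Clnk (0.96) and Klra9 (0.94). Gzmd and Gzme shared Tceal3 (0.96 and 0.96), next to Gm44040 (0.96) and Wscd2 (0.96) for Gzmd and Trdv4 (0.96) and Fam174b (0.96) for Gzme. Gzmg was most like Mpped2 (0.96), Bend5 (0.96) and Cldnd2 (0.96), and Gzmk like Dapk2 (0.96), Sytl2 (0.96) and Qrfp (0.96). With 3 lymphocyte groups these values cannot rank genes within lymphocytes.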

How the data were processed

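Cells sorted for CD45 from 4 samples, 1 per group, were measured by droplet 3′ single-cell RNA sequencing with sample multiplexing. According to the study's methods and the submitters' processing notes, the authors aligned reads with Cell Ranger (mm10) and used Seurat 4.3.0, with minimum genes per cell of 1000 and maximum mitochondrial and ribosomal shares of 15% and 40%. The deposited matrix holds raw UMI counts per gene and cell, and the deposited cell table gives sample and cell type. Doublet removal beyond multiplexing tags is not given in the sources used here, and no doublet caller was run. The authors' names came from an integration with other experiments.

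Here counts were summed per cell type and sample and divided by the total (CPM). Intervals were exact Poisson for CPM, Clopper-Pearson for shares and conditional binomial for ratios, all at 95%. Ratios used CPM + 1, genes were counted as measured at 50 CPM in the higher sample, and thinning drew 2000 UMIs per cell, leaving out 2 cells in NTT, 1 in RTT and 1 in RTT_ROSA26. Python 3.11.15, scipy 1.17.1 and edgeR 4.0.16 (scaling factors) were used. On counts simulated from a Poisson model for RTT_PTGS12KO against NTT, 95.7% of intervals over 2338 genes held the true ratio. The intervals assume that same model, which holds no spread between cells or loads. The value thus checks the code and says nothing about spread in the real counts. Alternatives covered scaling, pseudocount, cell filters, cell weights and loads. Named genes were the 9 members, 36 pathway genes and, for each member, the 3 genes most like it. Members and lists were chosen with earlier results of these data known. Columns of the authors' own tests were not used.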

Additional observations from a re-analysis of the deposited data

Results flagged for a closer look

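Gzma and Gzmb drew attention because their differences between RTT_PTGS12KO and NTT ran in opposite directions in the 2 lymphocyte classes. For Gzma the log2 ratio was -0.84 in NK_cells and 0.26 in T_CD8, so that the ratio in NK_cells minus that in T_CD8 was -1.10. For Gzmb it was -0.40 and 0.59, a difference of -0.99. Each ratio's counting interval left out 0. With 1 sample per group the difference was not tested, and T_CD8 rested on 93 and 45 cells. The T_CD8 ratios were not put through the alternatives below. One cell held 12.1% of the Gzma UMIs in T_CD8 of all samples. After thinning Gzma was seen in 18.3% of T_CD8 in NTT (11.02% to 27.6%) and 26.7% in RTT_PTGS12KO (14.6% to 41.9%).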

How the results depend on the processing

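No paired analysis was possible because there was a single sample for every group. The alternatives gave values with no test.

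The summed log2 ratio of RTT_PTGS12KO to NTT in NK_cells (0.24) was 0.20 with TMM factors, 0.060 as a mean over cells, 0.26 with a stricter cell filter, 0.22 without cells with a Cd3 UMI and 0.20 without the cell with the most member UMIs in each sample, which was added after seeing the data. The same ratio of NTT to RTT (1.40) was 1.73 with TMM factors, 1.14 as a mean over cells, 1.59 without Cd3 cells and 1.54 without the top cell. For RTT_PTGS12KO to RTT_ROSA26 (0.64) the values were 0.85, 0.57, 0.43 and 1.09 in that order, with 0.57 after the 10% of NK_cells with most myeloid UMIs were left out and 0.46 with T_CD8 pooled in. For RTT_ROSA26 to RTT (0.99) they were 1.08, 0.63, 1.38, 0.65, 1.10 and 1.20. Leaving out each load in turn gave 0.13 to 0.39, 1.31 to 1.61, 0.25 to 1.31 and 0.38 to 1.49 for the 4 contrasts.

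Over all cells the log2 ratio of NTT to RTT (6.27) was 6.42 with TMM factors, 5.91 on CPM + 10 and 6.26 with a stricter filter, that of RTT_PTGS12KO to RTT_ROSA26 (3.56) was 3.69 and 3.43 with the first pair of changes, and that of RTT_ROSA26 to RTT (1.45) was 1.42 and 1.23. Leaving out loads gave 6.07 to 6.65, 3.27 to 4.14 and 0.79 to 1.98. Counting as lymphocytes all cells with 2 or more natural killer or T cell markers, these held 99.2%, 65.3%, 87.7% and 98.2% of member UMIs in NTT, RTT, RTT_ROSA26 and RTT_PTGS12KO.

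Thinning moved the share of NK_cells with a UMI in NTT to 86.1% for Gzma, 83.2% for Gzmb, 42.7% for Gzmc, 17.5% for Gzmd, 14.7% for Gzme, 7.78% for Gzmf, 5.23% for Gzmg, 6.65% for Gzmk and 75.2% for Prf1. In RTT_PTGS12KO it moved them to 74.8%, 71.9%, 58.2%, 35.0%, 33.3%, 15.4%, 16.01%, 3.59% and 66.3%, in RTT to 0% for Gzmf and Gzmg and 50% for Prf1, and in RTT_ROSA26 to 40% for Gzmb and Prf1.

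Of 99 values for single members of RTT_PTGS12KO against NTT, 56 stayed within counting error, 42 lay outside it with the same sign, and Prf1 reversed to -0.040 as a mean over cells. Gzmf ranged from 0.13 to 1.24 and Gzmg from 2.63 to 3.37. The share of genes 2-fold apart was 2.22%, or 2.60% and 2.01% at minimum levels of 10 and 200 CPM. RTT and RTT_ROSA26 rested on 13 and 26 natural killer cells, and 1 tumour sample per group leaves the spread between tumours unknown. The cause of these shifts was not tested.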

Other observations

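Of 32173 cells outside NK_cells and T_CD8, 27 held 10 or more member UMIs, and 20 of these (74.1%) had UMIs of 2 or more natural killer or T cell markers, against 2.27% of all such cells. Gzma was the most counted member in 14 of the 27, and 14 had 0 UMIs of Gzmc, with 797 UMIs of Gzma and 70 of Gzmc in all. The cells were named TAM_cycling in 10 cases. By sample RTT_PTGS12KO had 15 of them, NTT and RTT 5 each and RTT_ROSA26 2, and their median depth was 14085 UMIs against 10969 for all cells outside lymphocytes. One cell named Mast in RTT_PTGS12KO had 11 UMIs of Gzmb and 0 of every other member and of every natural killer and T cell marker examined.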
